A study of Mus musculus with 12 samples.

Results

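Potassium channel genes were followed in uterine tissue of pregnant mice, across 3 genotypes and 12 RNA sequencing libraries. The members were all genes of the deposited count table whose symbol starts with Kcn and a lower-case letter, which gave 98 of 24964 genes. They encode the pore-forming and auxiliary subunits of potassium channels. Among them are also 4 antisense or host-gene transcripts (Kcnq1ot1, Kcnmb4os1, Kcnmb4os2 and Kcnd3os) and Kcnrg, which is known in human cells as a regulator of voltage-gated channels. The rule itself used symbols only and no measured value, but it was set with earlier results of these data known.

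The tissue was taken at 13.5 days post coitum, and each group held 4 libraries. PGR-A OE mice were labelled Myh11Cre; LSLPGRA/+ and by their label overexpressed isoform A of the progesterone receptor. PGR-B OE mice were labelled Myh11Cre; LSLPGRB/+ and overexpressed isoform B. Control mice carried Myh11Cre without either allele, so the Cre driver was shared by all 3 groups. An LSL allele carries a stop cassette before its coding sequence, which Cre removes. Myh11 is a gene of smooth muscle, and a driver of this kind acts in smooth muscle of vessels as well as of the uterine wall. The labels call the material uterine tissue without naming the animal behind each replicate, so p-values cover only the spread among these libraries, which may be partly technical.

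Potassium channels let potassium leave the cell, which holds the membrane potential of uterine smooth muscle negative and so limits calcium entry and contraction. Large-conductance calcium-activated (BK) channels, voltage-gated (Kv) channels, ATP-sensitive channels and leak channels of the two-pore-domain family are all known in the myometrium. A channel is an assembly of pore subunits, often with auxiliary subunits that change its gating, its calcium sensitivity or its transport to the membrane.

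Libraries held 31872534 to 33078483 counts. Levels are given in CPM, counts scaled to a common library size after TMM normalization (edgeR's cpm), and levels of different genes are compared in CPM per kilobase of gene length. The targeted gene, Pgr, averaged 199.7 ± 38.5 CPM in PGR-A OE libraries and 223 ± 26.5 CPM in PGR-B OE libraries, against 121 ± 16.5 CPM in control libraries (SD, n = 4 each), and neither overexpression group overlapped the controls. Counts per gene do not separate the isoforms. PGR-A OE replicate 4 stood apart, at 62.4 on a first principal component that held 23.0% of the variance. Control replicate 4 stood apart on the other side, at -31.0, and the other 10 libraries lay between -8.87 and 7.58. Markers of smooth muscle were present in every library, and the sum of 15 of them ran from 22112 to 30838 CPM in PGR-A OE, 16040 to 21409 CPM in PGR-B OE and 16559 to 21701 CPM in control libraries. The sum of 10 decidual and trophoblast markers varied more, with 99.6 CPM in PGR-A OE replicate 4 and 5215 CPM in control replicate 4. The sum of 9 fibroblast markers was 28895 to 36112 CPM in PGR-A OE and 28996 to 36049 CPM in PGR-B OE, against 24725 to 25650 CPM in control libraries. Sums of endothelial, pericyte, leukocyte, epithelial and glial markers overlapped between every pair of groups. In bulk tissue, a change in the share of a cell type cannot be told apart from a change of RNA per cell.

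Of the 98 members, 60 passed the filter on low counts and were tested, 34 had 1 to 76 counts over all 12 libraries and were below the filter, and 4 had no count. The 4 listed at 0 were Kcnk16, Kcnk9, Kcnk15 and Kcna10, and a count of 0 over the 12 libraries allows a level of up to 0.0077 CPM, counting error only. The filter asked for about 0.309 CPM in at least 4 libraries, and 51 of the 60 tested members were at or over that level in all 4 controls. The other 9, Kcnb2, Kcnh1, Kcnj12, Kcnrg, Kcng2, Kcnk7, Kcnt1, Kcnc1 and Kcng4, were under it in at least 1 control library. They passed the filter only with overexpression libraries among the 4 needed. Kcnc1 was at or over the level in 0 control libraries and Kcnh1 in 1. Counts of higher members below, and of lower ones between the isoforms, include some of these 9 genes. Those counts are therefore not free of the filter. By family, 12 of 17 Kv pore genes, 6 of 10 silent Kv pore genes, 10 of 12 Kv auxiliary genes, 3 of 5 KCNQ genes, 3 of 8 EAG and ERG genes, 7 of 15 inward rectifier genes and 8 of 14 two-pore-domain genes were tested. All 4 SK and IK genes and all 3 Slo2 and Slo3 genes were tested.

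The uterine potassium channel repertoire was uneven. Per kilobase of gene length, 5 members exceeded 10 CPM in the control mean, 24 lay between 1 and 10, 62 had counts but stayed under 1, and 7 had no count. Kcne2, an auxiliary subunit that partners KCNQ and ERG pores, and Kcnk1, the two-pore-domain leak channel TWIK-1, made up 72.6% of the summed control CPM per kilobase of all members. Per kilobase, Kcne2 stood at 124.7 ± 32.4 CPM in PGR-A OE, 168.9 ± 46.3 in PGR-B OE and 234 ± 59.0 in control libraries (SD, n = 4 each). Kcnk1 followed with 105.5 ± 27.8, 125.3 ± 11.96 and 138 ± 16.7 CPM per kilobase in the same groups.

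After this pair the levels dropped several-fold. Kcne4, an auxiliary subunit known to inhibit KCNQ1, was at 25.1 ± 15.9 CPM per kilobase in PGR-A OE, 16.7 ± 1.82 in PGR-B OE and 26.5 ± 5.23 in control libraries. Kcnj8, the pore of the smooth muscle ATP-sensitive channel (Kir6.1), had 16.7 ± 3.32, 13.7 ± 1.71 and 14.1 ± 1.91 CPM per kilobase. Kcnmb1, the beta 1 subunit that raises the calcium sensitivity of BK channels in smooth muscle, had 11.5 ± 1.01, 11.1 ± 1.13 and 12.8 ± 2.08 CPM per kilobase. In the controls, Kcnj8 and Kcnmb1 did not differ beyond their SDs, and both lay below Kcne4.

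Below them the controls showed a flat shelf between 6.98 and 4.48 CPM per kilobase. In falling order these were Kcnh2 (the ERG pore), Kcnk6 (TWIK-2), Kcnma1 (the BK pore), Kcnk5 (TASK-2), Kcnf1 (a silent Kv subunit) and Kcnq1 (a KCNQ pore). The control SDs ranged from 0.291 for Kcnk6 to 1.53 for Kcnf1, and the means of each neighbouring pair among these differed by less than the sum of their SDs.

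**Figure D1:**
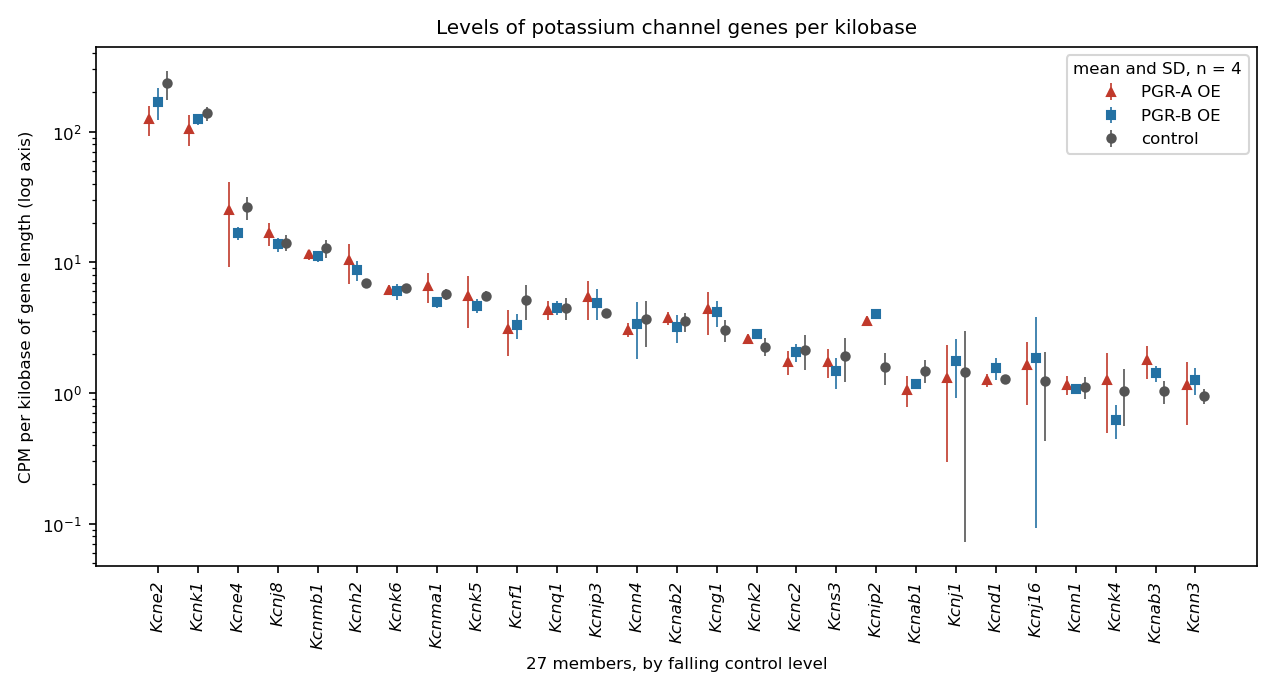
Mean level in CPM per kilobase of gene length, on a log axis, for 27 of the 30 potassium channel genes with the highest control level, with whiskers for the SD over 4 libraries of PGR-A OE (triangles), PGR-B OE (squares) and control (circles). Kcne2 and Kcnk1 stand above 100 CPM per kilobase in every group, and for Kcnip2 both overexpression means lie above the control mean by more than their SDs.

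For the BK and ATP-sensitive channels, a single gene of each kind held nearly all counts. Of the BK auxiliary genes, Kcnmb1 was tested, while Kcnmb2, Kcnmb3 and Kcnmb4 had 9, 6 and 9 counts over all 12 libraries. The inward rectifier Kcnj11 (the Kir6.2 pore), which with the Abcc8 product forms the ATP-sensitive channel of pancreatic beta cells, had 37 counts over all 12 libraries and was below the filter, while its relative Kcnj8 was among the most abundant members.

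PGR-A OE was first compared with control. Kcnip2, Kcnt1 and Kcnc4 rose, and no member fell past the threshold of an adjusted p under 0.05. Unless another test is named, p-values come from a quasi-likelihood fit in edgeR, and adjusted ones are corrected by Benjamini-Hochberg over all 15561 genes tested. These 3 were 5% of the 60 tested members, beside 0.655% of all genes tested (0.482% higher and 0.174% lower). DESeq2 called 7 members, Kcng4, Kcnab3 and Kcne2 among them, beside 3.64% of genes, and limma voom 2 (Kcnip2 and Kcnt1), beside 0.611%. Kcnip2 encodes KChIP2, a calcium-binding cytosolic subunit of Kv4 channels, Kcnt1 encodes Slack, a sodium-activated pore of the Slo2 family, and Kcnc4 encodes the rapidly inactivating Kv3 pore Kv3.4.

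Kcnip2 (chromosome 19, 45791839 to 45816061, GRCm38, GENCODE annotation) was at 9.90, 7.85, 8.80 and 9.05 CPM in the PGR-A OE libraries, against 4.45, 3.97, 4.99 and 2.41 CPM in the control libraries. The lowest PGR-A OE library was above the highest control, and control replicate 4 was the lowest of all. The mean was 8.90 ± 0.846 CPM in PGR-A OE, against 3.96 ± 1.11 CPM in control (SD, n = 4 each), a rise of 1.17 on the log2 scale (SE 0.18, adjusted p = 0.0128, edgeR). The call held in all 8 fits that left out 1 library, with adjusted p up to 0.0493, and was lost at an adjusted p of 0.0562 when only the 8 libraries compared were fitted.

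Kcnt1 (chromosome 2, 25863734 to 25918273) had the largest fold change of the 60 tested members in this comparison. Its levels were 2.42, 0.992, 2.51 and 3.00 CPM in PGR-A OE, against 0.322, 0.382, 0.126 and 0.447 CPM in control libraries. These are 83, 33, 78 and 102 counts in PGR-A OE and 10, 12, 4 and 15 counts in controls. PGR-A OE replicate 2 was well below the other 3, and still above every control. The rise was 6.98-fold, or 2.78 on the log2 scale (SE 0.40, adjusted p = 0.00835, edgeR), and it held in all 8 fits without 1 library, with adjusted p up to 0.0449. Kcnt1 was under the filter level in 1 control library, and all 4 PGR-B OE libraries were over that level.

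Kcnc4 (chromosome 3, 107438303 to 107459552) was at 3.03, 2.19, 3.76 and 3.23 CPM in PGR-A OE, against 1.10, 1.24, 0.726 and 0.804 CPM in control libraries. The groups did not overlap, and the mean was 3.05 ± 0.649 CPM in PGR-A OE against 0.967 ± 0.242 CPM in control (SD, n = 4 each). The rise was 3.16-fold, or 1.66 on the log2 scale (SE 0.31, adjusted p = 0.0342, edgeR). It was at the edge of the threshold. Without PGR-A OE replicate 2 the adjusted p was 0.0474, and without PGR-A OE replicates 1, 3 or 4 or any 1 of the 4 controls it ran from 0.0608 to 0.100. With PGR-A OE replicate 4 and control replicate 4 both left out, Kcnip2 and Kcnt1 passed and Kcnc4 did not (adjusted p of 0.0118, 0.0226 and 0.0922). None of the annotated exons of Kcnip2, Kcnt1 and Kcnc4 overlapped another gene model.

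**Figure D2:**
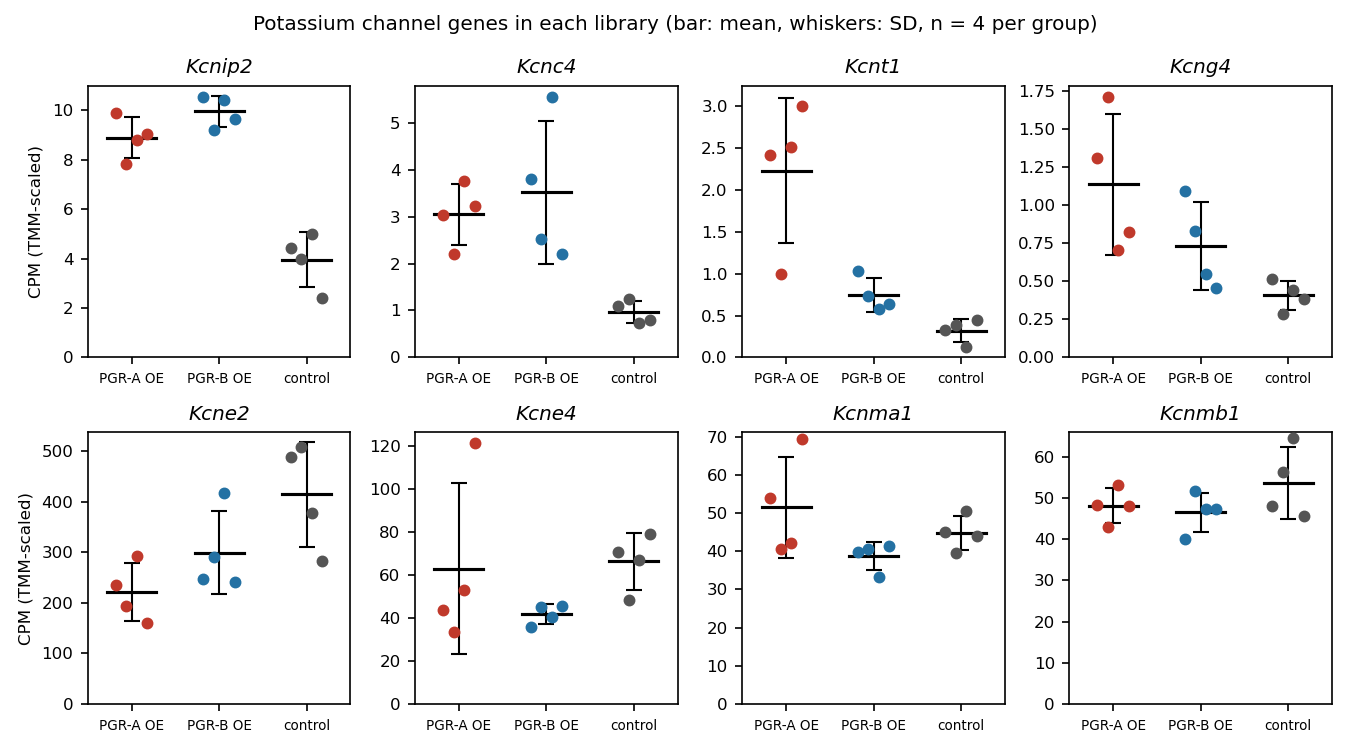
CPM of 8 potassium channel genes in each library of PGR-A OE, PGR-B OE and control, 1 point per library, with the mean as a bar and the SD as whiskers (n = 4 per group). Kcnip2 and Kcnc4 are higher in both overexpression groups with no overlap with control, Kcnt1 is highest in PGR-A OE, and Kcnma1 and Kcnmb1 overlap between the groups.

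Sequences around transcription starts annotated in RefSeq are shown because Kcnip2 and Kcnc4 passed in both overexpression groups. For Kcne2, the most abundant member, 1 of its 2 windows was added after its motif matches were seen. Windows of 300 bases, 250 before to 50 after the start, were taken from RefSeq for GRCm38.p6 and are given on the strand of the gene. The printed Kcnc4 and Kcne2 windows lie inside the GENCODE genes, which begin upstream at 107459552 and 92292389. They are therefore not sequence before the first GENCODE start. Such windows were at hand for 72 of the 98 members (97 windows), and Kcnt1 was not among them. The capitals mark matches to the GC box GGGCGG, on either strand, in the Kcnip2 window (chr19:45816014-45816313, minus strand) and the Kcnc4 window (chr3:107458849-107459148, minus strand). In the window of the second annotated start of Kcne2 (chr16:92295366-92295665, plus strand) they mark the hexamer TGTTCT, which steroid receptors including the progesterone receptor bind as part of their element, here on the reverse strand, and the palindromic core ACANNNTGT.
Kcnip2: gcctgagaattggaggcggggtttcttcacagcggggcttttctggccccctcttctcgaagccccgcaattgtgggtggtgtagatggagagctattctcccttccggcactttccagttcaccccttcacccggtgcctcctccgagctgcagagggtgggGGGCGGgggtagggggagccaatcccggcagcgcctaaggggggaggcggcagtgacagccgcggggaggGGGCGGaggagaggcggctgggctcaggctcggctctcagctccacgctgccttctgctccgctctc
Kcnc4: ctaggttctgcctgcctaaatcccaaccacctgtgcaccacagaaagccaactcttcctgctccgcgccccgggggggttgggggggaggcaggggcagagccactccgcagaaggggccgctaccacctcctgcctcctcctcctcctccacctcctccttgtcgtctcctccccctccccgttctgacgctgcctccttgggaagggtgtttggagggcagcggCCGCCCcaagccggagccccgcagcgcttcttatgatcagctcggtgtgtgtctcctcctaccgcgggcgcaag
Kcne2: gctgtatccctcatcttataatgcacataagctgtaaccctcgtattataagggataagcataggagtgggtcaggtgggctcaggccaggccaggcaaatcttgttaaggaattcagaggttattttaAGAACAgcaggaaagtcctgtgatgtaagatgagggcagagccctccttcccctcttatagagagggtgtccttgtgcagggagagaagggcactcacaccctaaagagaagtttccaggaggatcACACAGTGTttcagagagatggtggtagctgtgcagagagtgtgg

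The Kcnip2 window held 2 GC boxes, the first at base 164, and the Kcnc4 window held 1, at base 227, and neither contained TGTTCT or ACANNNTGT. In the Kcne2 window TGTTCT began at base 130 and ACANNNTGT at base 256, with no overlap between them. The window of the first annotated start of Kcne2, not printed here, held neither, and 1 GC box. Among all 32851 windows, 35.7% held GGGCGG, 19.0% TGTTCT, 6.85% ACANNNTGT, 7.81% the AP-1 site TGANTCA and 1.63% a CArG box, the element of serum response factor. Of the 97 windows of potassium channel genes, 47.4% held GGGCGG, 17.5% TGTTCT, 6.19% ACANNNTGT and 4.12% TGANTCA, and 0 held a CArG box. A match describes letters in these windows and shows no binding.

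Counting Kcnip2, Kcnt1 and Kcnc4, which passed, 15 of the 60 members (25%) had an unadjusted p under 0.05 in the PGR-A OE comparison. Of these, 10 were higher and 5 lower, beside 15.4% of all genes tested (7.56% higher and 7.87% lower). The higher ones include Kcnt1, Kcng4, Kcng2, Kcnc1 and Kcnh1, which passed the filter only with overexpression libraries. By the rule for naming and, for those outside it, after their values were seen, those not yet described are given as values. Among pore genes, Kcng4, a silent subunit that modifies Kv2 channels, was at 1.31, 1.71, 0.707 and 0.822 CPM in PGR-A OE, against 0.516, 0.286, 0.442 and 0.387 CPM in control libraries. The groups did not overlap, and the log2 difference was 1.47 (SE 0.36, adjusted p = 0.0991, edgeR).

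Kcnc1, a Kv3 pore like Kcnc4, had 15, 13, 5 and 16 counts in PGR-A OE and 2, 6, 3 and 1 counts in control libraries, a log2 difference of 1.92 (SE 0.60, adjusted p = 0.168) that overlapped between groups.

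Kcnh1, the EAG1 pore, was at 0.495, 0.511, 0.450 and 2.497 CPM in PGR-A OE, against 0.226, 0.191, 0.253 and 0.357 CPM in control libraries. PGR-A OE replicate 4 alone held 85 of its counts and moved the log2 difference, which was 1.93 with that library and 0.91 without it. The ERG pore Kcnh2 showed the same library apart, with 42.0, 36.9, 41.1 and 71.9 CPM in PGR-A OE, against 32.7, 29.95, 33.1 and 34.0 CPM in control libraries, and its log2 difference was 0.57 with that library and 0.30 without it. For both genes the other 3 PGR-A OE libraries were also above all controls, and the adjusted p was 0.158 for Kcnh1 and 0.194 for Kcnh2.

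Among leak channels, Kcnk3, the acid-sensitive TASK-1, was at 2.97, 2.65, 2.18 and 2.85 CPM in PGR-A OE, against 1.55, 1.94, 1.33 and 1.34 CPM in control libraries, with no overlap and a log2 difference of 0.79 (SE 0.25, adjusted p = 0.176). Kcnk1 pointed the other way, with 258.8, 223.9, 321.7 and 168.6 CPM in PGR-A OE, against 364.4, 330.7, 273.3 and 307.0 CPM in control libraries. Its groups overlapped, and the log2 difference was -0.39 (SE 0.16, adjusted p = 0.286). The silent subunits Kcnf1 and Kcng2 had log2 differences of -0.72 and 0.65, with adjusted p of 0.227 and 0.284.

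Among auxiliary subunits, Kcne2 was at 235.4, 193.6, 293.6 and 160.6 CPM in PGR-A OE, against 489.7, 507.8, 378.8 and 283.6 CPM in control libraries. Only PGR-A OE replicate 3 reached into the control range. The mean was 221 ± 57.4 CPM in PGR-A OE against 415 ± 105 CPM in control (SD, n = 4 each), a log2 difference of -0.91 (SE 0.23, adjusted p = 0.112). The sum of 8 epithelial markers was 1233 to 1621 CPM in PGR-A OE, against 1253 to 1981 CPM in control libraries, and its part in the level of Kcne2 was not tested. The Kv beta subunits Kcnab3 and Kcnab1 had log2 differences of 0.80 and -0.49, with adjusted p of 0.141 and 0.268. Exons of 32 of the 98 members overlap another gene model, among them those of Kcnab3, Kcnab1, Kcnk1, Kcnk2, Kcnk3, Kcnk4, Kcng2, Kcnn2, Kcnq5 and Kcnt2. How strand was used in counting was not given in the sources used here, so their counts are uncertain. Kcnk4 overlaps Catsperz on the same strand, where strand would not separate the reads of the pair.

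PGR-A OE and control libraries did not overlap for 10 of the 60 members, 9 of them higher and 1 lower in PGR-A OE, beside 10.6% of all genes tested (5.01% higher and 5.57% lower). Among the higher ones were Kcnip2, Kcnt1, Kcnc4, Kcng4, Kcnh1, Kcnh2, Kcnk3 and Kcng2. Of these, Kcnt1, Kcng4, Kcnh1 and Kcng2 passed the filter only with overexpression libraries. The median log2 difference was 0.24 over the 60 members and 0.00 over all genes tested. Of the 60 members 39 were positive, beside 7797 of all 15561 genes tested. All 15 smooth muscle markers were also positive in this comparison, with a median of 0.34, 0 past the threshold and 6 at an unadjusted p under 0.05, and fibroblast markers were positive in 7 of 9, with a median of 0.29 and 1 past the threshold. Pericyte markers were positive in 6 of 7, with a median of 0.33, 1 past the threshold and 4 at an unadjusted p under 0.05, and endothelial markers in 10 of 10, with a median of 0.16, 0 past the threshold and 2 at an unadjusted p under 0.05. The part of these cell types in the differences of the channel genes was not tested. The sum of 15 neuronal markers, 1 of which had no count, was 20.7 to 23.2 CPM in PGR-A OE, within the 16.8 to 25.1 CPM of control libraries.

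PGR-B OE was then compared with control. Kcnip2 and Kcnc4 rose, and no member fell past the threshold, so that 2 of 60 members (3.33%) passed, beside 0.308% of all genes tested (0.283% higher and 0.0257% lower). DESeq2 also called 2, beside 1.43% of genes, and limma voom 1, beside 0.244%. The controls are the same 4 libraries as for PGR-A OE, so these results are not independent of those above. Kcnip2 was at 10.5, 9.22, 10.4 and 9.67 CPM in the PGR-B OE libraries, all of them above the control maximum of 4.99 CPM. The mean was 9.96 ± 0.620 CPM in PGR-B OE against 3.96 ± 1.11 CPM in control (SD, n = 4 each), a rise of 1.33 on the log2 scale (SE 0.18, adjusted p = 0.0074, edgeR), and the call held in all 8 fits without 1 library, with adjusted p up to 0.0358.

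Kcnc4 was at 3.81, 2.52, 5.54 and 2.203 CPM in PGR-B OE. All 4 were above the control maximum of 1.24 CPM, and PGR-B OE replicate 3 was the highest of the 12 libraries. The mean was 3.52 ± 1.52 CPM in PGR-B OE against 0.967 ± 0.242 CPM in control (SD, n = 4 each), a rise of 1.86 on the log2 scale (SE 0.31, adjusted p = 0.0258, edgeR). The call was lost without control replicate 1, 2, 3 or 4, at adjusted p of 0.0832, 0.0624, 0.092 and 0.0694, and without PGR-B OE replicate 1, at 0.0803. It was also lost with limma voom (0.0587), when only the 8 libraries compared were fitted (0.0628), and with PGR-A OE replicate 4 and control replicate 4 both left out (0.0643).

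Kcnt1 was at 1.03, 0.734, 0.580 and 0.643 CPM in PGR-B OE, against 0.322, 0.382, 0.126 and 0.447 CPM in control libraries. Every PGR-B OE library was above every control, but the log2 difference of 1.22 (SE 0.41, interval 0.32 to 2.11) had an adjusted p of 0.385 and did not pass. Kcne4 showed no overlap in the other direction, with 36.0, 45.2, 40.3 and 45.6 CPM in PGR-B OE, against 70.9, 48.3, 66.9 and 79.3 CPM in control libraries. Its log2 difference was -0.67 (SE 0.32, adjusted p = 0.563).

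In all, groups did not overlap for 5 of the 60 members, 3 higher (Kcnip2, Kcnt1 and Kcnc4) and 2 lower (Kcne4 among them), beside 5.67% of all genes tested (3.07% higher and 2.6% lower). An unadjusted p under 0.05 was found for 8 members (13.3%), 6 higher and 2 lower, beside 9.28% of all genes tested (4.69% higher and 4.59% lower). Besides Kcnip2, Kcnc4 and Kcnt1, these included Kcnk2, Kcnc1, Kcnf1 and Kcng4. Of these, Kcnt1, Kcnc1 and Kcng4 passed the filter only with overexpression libraries. Kcnk2, the stretch-sensitive leak channel TREK-1 that has been studied in the myometrium, was at 13.0, 11.6, 11.1 and 11.0 CPM in PGR-B OE, against 8.87, 7.95, 9.09 and 11.4 CPM in control libraries, with a log2 difference of 0.33 (SE 0.12, adjusted p = 0.421). Control replicate 4 was inside the PGR-B OE range. The log2 differences of Kcnc1, Kcnf1 and Kcng4 were 1.63, -0.63 and 0.84, and that of Kcnf1 was -0.40 without control replicate 4. The median over the 60 members was 0.00, with 30 positive, and -0.01 over all 15561 genes tested, with 7595 positive. Of the 15 smooth muscle markers 5 were positive, with a median of -0.06. Fibroblast markers were positive in 7 of 9, with a median of 0.33 and 0 past the threshold, and their summed level did not overlap the controls, as given above. Their part in the rise of Kcnip2 and Kcnc4 was not tested.

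**Figure D3:**
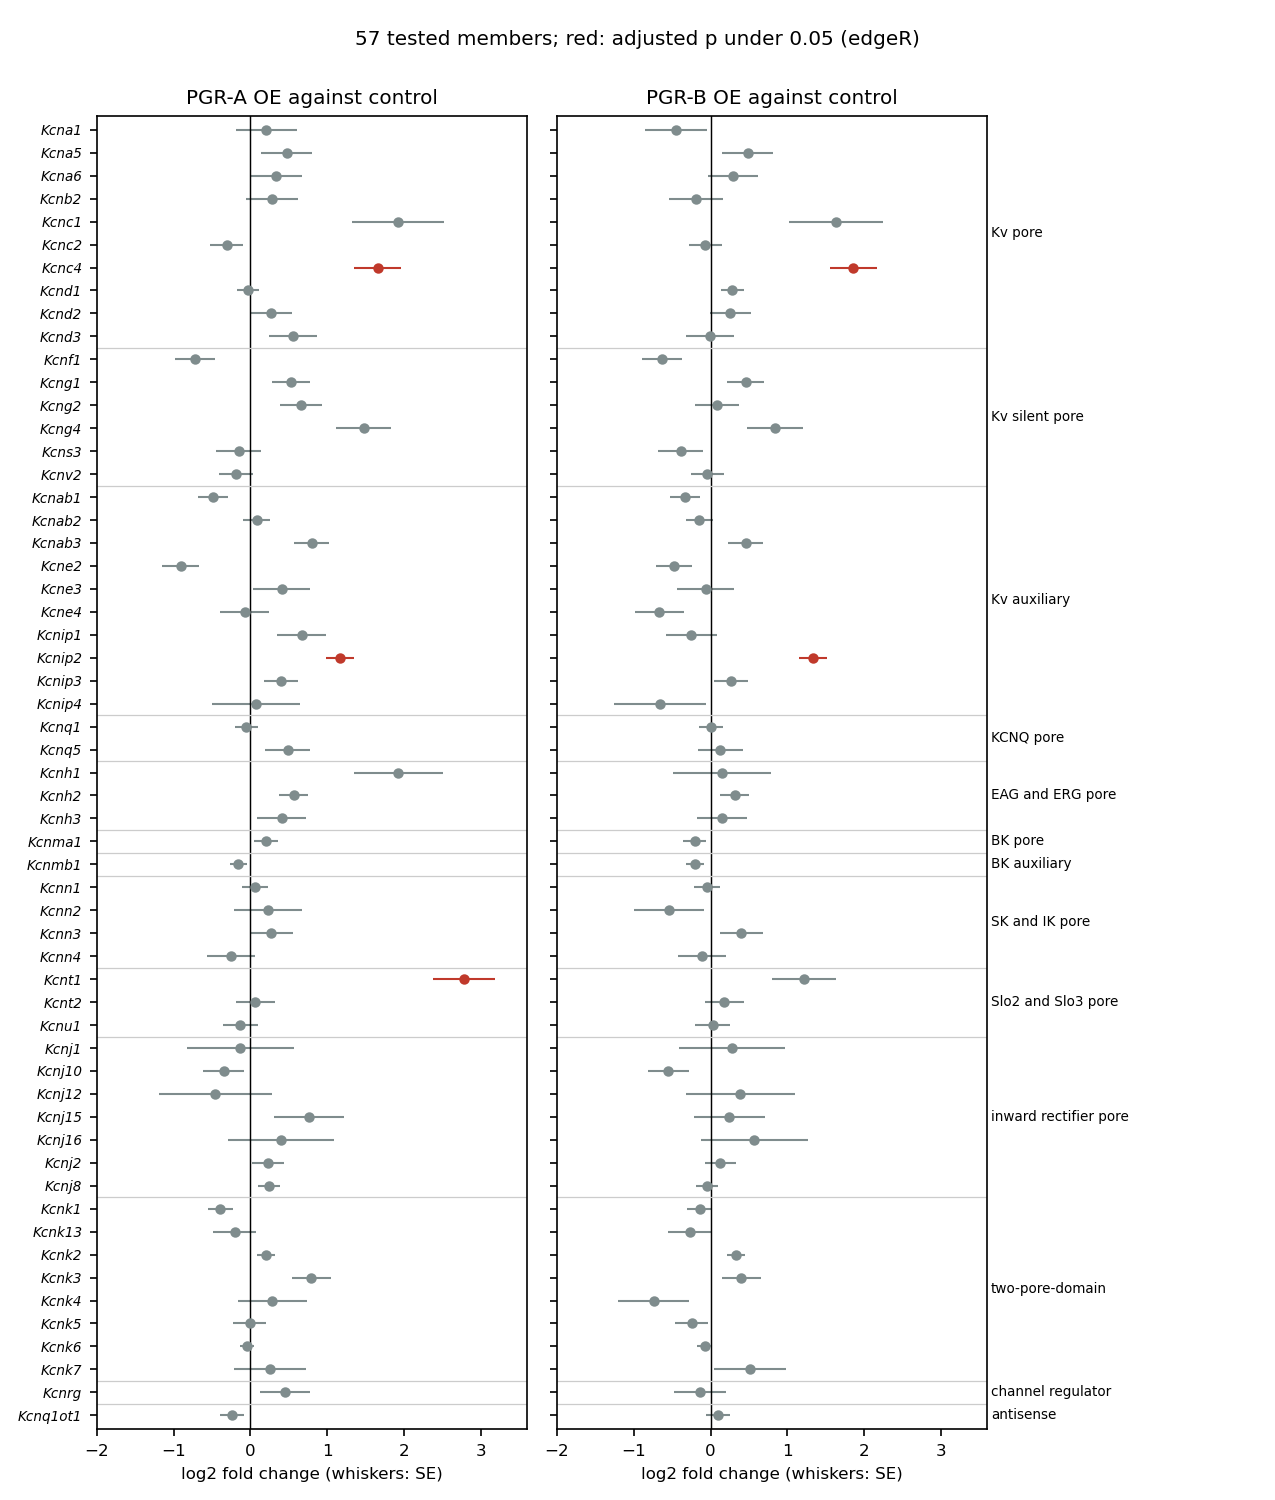
Log2 fold change with its SE (whiskers) of 57 tested members, grouped by family, in PGR-A OE against control (left) and PGR-B OE against control (right), with members of adjusted p under 0.05 in red. Kcnip2 and Kcnc4 are red in both panels, Kcnt1 only in the left one at 2.78, and most other members lie within 1 of no change.

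PGR-B OE was also set against PGR-A OE, the direct comparison of the isoforms. Here 0 of 60 members passed with edgeR, beside 0.116% of all genes tested (0.0578% higher and 0.0578% lower). An unadjusted p under 0.05 was found for 5 members, all lower in PGR-B OE (8.33%), beside 8.04% of all genes tested (3.28% higher and 4.76% lower). DESeq2 called 1 member, Kcnt1, beside 0.813% of genes, and limma voom 0, beside 0.135%. Kcnt1 averaged 0.747 ± 0.200 CPM in PGR-B OE, and PGR-A OE libraries averaged 2.23 ± 0.862 CPM (SD, n = 4 each). The log2 difference was -1.57 (SE 0.37, interval -2.37 to -0.77), with an adjusted p of 0.22 by edgeR and 0.0175 by DESeq2, and the 2 groups overlapped through PGR-A OE replicate 2. In the same comparison smooth muscle markers had negative log2 differences in 15 of 15, with a median of -0.40, 0 past the threshold and 10 at an unadjusted p under 0.05. Their summed level was 16040 to 21409 CPM in PGR-B OE, below the 22112 to 30838 CPM of PGR-A OE without overlap. Pericyte markers had a median of -0.25, with 3 of 7 lower at an unadjusted p under 0.05, and endothelial markers were negative in 10 of 10, with a median of -0.13. The part of these cell types in the isoform comparison was not tested.

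The other 4 were Kcnh1, the Kv4 auxiliary subunit Kcnip1, Kcnma1 and the mechanosensitive leak channel Kcnk4, with log2 differences of -1.78, -0.92, -0.41 and -1.02 and adjusted p of 0.451, 0.505, 0.534 and 0.619. Kcnh1 was the 1 member whose groups did not overlap, beside 3.85% of all genes tested (1.5% higher and 2.35% lower). It passed the filter only with libraries of PGR-A OE, the group where it was higher, so its place in these counts is not free of the filter. Each of these 4 rested in part on PGR-A OE replicate 4, the highest of its group for all of them. With that library and control replicate 4 both left out, the log2 differences were -0.75 for Kcnh1, -0.56 for Kcnip1, -0.23 for Kcnma1 and -0.54 for Kcnk4.

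For the genes that passed in both groups, the isoforms were not shown to differ. Kcnip2 differed by 0.16 on the log2 scale, PGR-B OE over PGR-A OE (interval -0.22 to 0.54), and Kcnc4 by 0.20 (interval -0.42 to 0.83).

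The BK channel, the best-known potassium channel of uterine smooth muscle, did not pass in any comparison. Kcnma1 (chromosome 14, 23289431 to 24014491) was at 53.8, 40.6, 42.2 and 69.3 CPM in PGR-A OE, 39.9, 40.5, 33.2 and 41.4 CPM in PGR-B OE and 45.1, 39.5, 50.4 and 43.9 CPM in control libraries. The log2 difference against control was 0.20 in PGR-A OE (interval -0.13 to 0.53) and -0.21 in PGR-B OE (interval -0.54 to 0.12). Without PGR-A OE replicate 4, the highest library, the PGR-A OE difference was 0.027. One other gene model, on the opposite strand, overlaps its exons. Kcnmb1 was at 48.5, 42.9, 53.3 and 48.0 CPM in PGR-A OE, 40.2, 51.6, 47.3 and 47.4 CPM in PGR-B OE and 48.0, 56.3, 64.7 and 45.6 CPM in control libraries, with log2 differences of -0.16 (interval -0.41 to 0.09) and -0.20 (interval -0.45 to 0.05).

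The ratio of Kcnmb1 to Kcnma1 counts, which does not depend on library scaling, averaged 0.978 ± 0.241 in PGR-A OE, 1.21 ± 0.179 in PGR-B OE and 1.20 ± 0.185 in control libraries (SD, n = 4 each). Against control, the exact permutation p (two-sided) was 0.171 for PGR-A OE and 0.971 for PGR-B OE (0.257 and 0.971 after Benjamini-Hochberg adjustment over 6 ratio tests). With 4 against 4 libraries the smallest p of this test is 0.0286. The lowest ratio, 0.693, was in PGR-A OE replicate 4.

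For the ATP-sensitive channel of smooth muscle, Kcnj8 was at 35.7, 38.6, 41.4 and 54.8 CPM in PGR-A OE, 34.3, 29.6, 35.6 and 40.2 CPM in PGR-B OE and 39.3, 30.8, 40.9 and 32.99 CPM in control libraries. The log2 difference was 0.24 (interval -0.06 to 0.55) in PGR-A OE, 0.098 without replicate 4 of that group, and -0.04 (interval -0.35 to 0.26) in PGR-B OE, where leaving out control replicate 1 or 3 or PGR-B OE replicate 2 turned the sign (up to 0.033). Its partner Abcc9, the sulfonylurea receptor SUR2, was tested beside it. The ratio of Abcc9 to Kcnj8 counts was 1.00, 0.923, 0.774 and 0.811 in PGR-A OE, against 1.03, 1.28, 1.04 and 1.28 in control libraries, with no overlap. The two-sided p of the exact permutation test was 0.0286, the smallest it can give, and 0.171 after adjustment over the 6 ratio tests. A single ratio at the smallest p cannot pass an adjustment over 6 tests, so the corrected test could not decide here. In PGR-B OE the ratio averaged 1.05 ± 0.142, against 1.16 ± 0.144 in control libraries (SD, n = 4 each, exact permutation p = 0.343).

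The Kv4 pores that KChIP2 joins were chosen after the values of Kcnip2 were seen. Kcnd1 averaged 4.79 ± 0.528 CPM in PGR-A OE, 5.95 ± 1.14 in PGR-B OE and 4.89 ± 0.359 in control libraries (SD, n = 4 each). Kcnd2 averaged 3.26 ± 0.683, 3.23 ± 1.26 and 2.701 ± 0.575 CPM in the same groups, and Kcnd3 9.36 ± 4.32, 6.34 ± 2.82 and 6.40 ± 0.621 CPM. The groups overlapped for all 3, and none passed the threshold, while Kcnip2 did. The PGR-A OE mean of Kcnd3 was raised by replicate 4, at 15.8 CPM against 7.11, 7.28 and 7.23 CPM in the other 3 libraries of that group, and its exons overlap the antisense transcript Kcnd3os.

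In the KCNQ, SK and IK, inward rectifier and two-pore-domain families, no member passed in any comparison with edgeR or DESeq2. The KCNQ pores Kcnq1 and Kcnq5 had log2 differences of -0.05 and 0.49 in PGR-A OE and 0.01 and 0.13 in PGR-B OE. For Kcnq5 the PGR-A OE difference was 0.035 without replicate 4 of that group, at 12.01 CPM against 4.03 to 5.56 CPM in the other 3. For Kcnq1, fits without 1 library ran from -0.15 to 0.097 in PGR-A OE and from -0.079 to 0.16 in PGR-B OE. Kcnq1ot1, the imprinted transcript antisense to Kcnq1, had -0.24 and 0.09 (the second was -0.035 without PGR-B OE replicate 1), and the 2 overlap, so their counts are uncertain without strand. Of the 4 SK and IK genes, Kcnn3 (SK3), whose overexpression is known to disturb labour in mice, averaged 8.73 ± 4.37 CPM in PGR-A OE, 9.55 ± 2.21 CPM in PGR-B OE and 7.23 ± 0.929 CPM in control libraries. Its log2 differences were 0.27 and 0.40, and those of Kcnn2 (SK2) were 0.23 and -0.54. Both PGR-A OE values turned without PGR-A OE replicate 4, to -0.14 for Kcnn3 and -0.23 for Kcnn2. That library held 15.2 CPM of Kcnn3 against 5.74 to 7.39 CPM in the other 3, and 2.23 CPM of Kcnn2 against 0.661 to 1.25 CPM. The sodium-activated Kcnt2 (Slick), the nearest relative of Kcnt1, had 0.06 and 0.18 and did not pass. Its PGR-A OE value was -0.062 without control replicate 4 and -0.023 without PGR-A OE replicate 1.

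Among inward rectifiers, Kcnj16 (Kir5.1) was scattered within groups, from 2.57 to 19.0 CPM in PGR-B OE and from 1.10 to 9.03 CPM in controls. Kcnj1 (ROMK) was scattered as well, from 1.80 to 8.05 CPM in PGR-B OE and from 1.48 to 12.2 CPM in controls, and Kcnj10 (Kir4.1) had log2 differences of -0.35 and -0.55. Among two-pore-domain genes, Kcnk6 varied little, at 25.2 ± 2.04 CPM in PGR-A OE, 24.6 ± 3.42 CPM in PGR-B OE and 26.0 ± 1.19 CPM in control libraries (SD, n = 4 each). Kcnk5 averaged 18.5 ± 7.88, 15.7 ± 1.82 and 18.6 ± 1.504 CPM. Kcnrg had log2 differences of 0.45 and -0.14, the second at 0.051 without control replicate 3.

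Partner proteins outside the Kcn symbols gave 0 of 6 tested genes past the threshold in each comparison, from a list of 9 that holds sulfonylurea receptors, BK gamma subunits and Kv accessory proteins. A second list of 20 genes for other ion transport that sets the membrane potential, with 18 tested, also gave 0 in each comparison. The lowest p of that list against control belonged to Hcn4, a pacemaker channel gene named after its values were seen. It was at 0.990, 1.29, 0.578 and 1.76 CPM in PGR-A OE, 2.63, 0.894, 1.16 and 1.499 CPM in PGR-B OE and 0.484, 0.350, 0.410 and 0.357 CPM in control libraries. Neither overexpression group overlapped the controls, and the log2 differences of 1.53 and 1.94 had adjusted p of 0.114 and 0.0784 in the edgeR fit.

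Within PGR-A OE, several members were highest in replicate 4, the library that stood apart. Besides Kcnh1, Kcnh2 and Kcnd3, these included Kcne4 at 121.5 CPM against 33.6 to 53.0 CPM in replicates 1 to 3, Kcnk5 at 30.1 CPM against 13.0 to 16.7 CPM, and Kcng1 at 15.5 CPM against 7.31 to 9.35 CPM. Kcne2 and Kcnk1 were lowest there, at 160.6 and 168.6 CPM. Kcnip2 and Kcnc4 did not stand out in that library, at 9.05 and 3.23 CPM. The same library held the highest smooth muscle sum, 30838 CPM, and the lowest decidual and trophoblast sum, and the part of either in these levels was not tested.

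**Figure D4:**
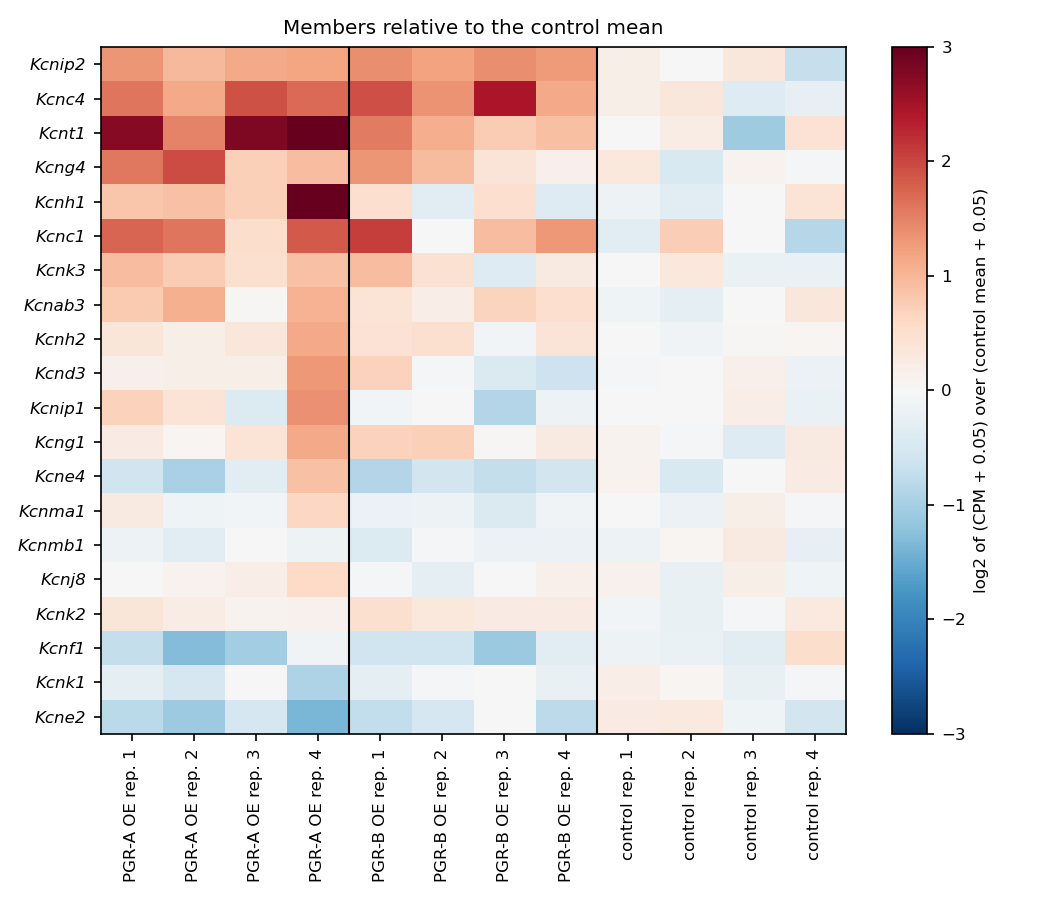
Level of 20 potassium channel genes in each library relative to the control mean, as the log2 ratio after adding 0.05 CPM to both, for PGR-A OE, PGR-B OE and control replicates from left to right. Kcnip2, Kcnc4 and Kcnt1 are above the control mean in all 8 overexpression libraries, and the column of PGR-A OE replicate 4 differs from its 3 neighbours for Kcnh1, Kcnh2, Kcnd3, Kcng1 and Kcne4.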

How the data were processed

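Reads were 75 bp and paired-end, from TruSeq libraries of uterine tissue RNA, per the labels' protocols. The authors deposited 1 table of raw counts per gene, with gene lengths, covering the 12 libraries. The submitters' processing notes name Bowtie2 2.2.5, STAR 2.7.0f, Subread 1.6.4, featureCounts and DESeq2, and the builds GRCm38 and mm10. Which tool did what, the annotation, multi-mapping reads and strand handling were not given in the sources used here, so members that overlap other genes or resemble paralogs may share reads.

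R 4.3.3 and edgeR 4.0.16 were used (filterByExpr on the 3 groups, TMM, a robust quasi-likelihood fit of all 12 libraries, glmQLFTest). Adjustment was by Benjamini-Hochberg over 15561 genes, with a threshold of 0.05, and intervals are at 95%. The fit was also run on data simulated from its own estimates of spread, and no outcome of that run is used here. DESeq2 1.42.0, limma 3.58.1 (voom), other scalings and filters, fits without single libraries and a replicate block served as alternatives, and library totals without a scaling factor were added after the data were seen. Ratios of counts were compared by exact two-sided permutation tests. Library pairs within each group were checked for duplicates, and none was found. Pairs across groups were not checked. Gene positions came from GENCODE for GRCm38 by symbol, for 98 of 98 members. The rule for naming members took the 4 genes Kcnma1, Kcnt1, Kcnc4 and Kcnip2, all called members, the 12 with the highest control level per kilobase, up to 2 per family with the lowest p, and the BK and ATP-sensitive channel subunits. Other members are named after their values were seen. A few members and 1 marker are not reported here, though they enter the counts. The members and lists were chosen with earlier results of these data known.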

Additional observations from a re-analysis of the deposited data

Results flagged for a closer look

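In 5 of 75 groups of 4 libraries examined among reported members taken by the rule for naming, 1 library lay far from the other 3. Chance sets a library apart in about 1 in 20 such groups, and all 5 cases fell on 2 libraries. In PGR-A OE replicate 4, Kcnh2 was at 71.9 CPM against 36.9 to 42.0 CPM in replicates 1 to 3, and Kcnh1 at 2.497 CPM against 0.450 to 0.511 CPM. In control replicate 4, Kcnf1 was at 35.5 CPM against 19.5 to 22.1 CPM, Kcnq1 at 17.5 CPM against 11.96 to 12.5 CPM, and Kcnk5 at 16.4 CPM against 19.3 to 19.4 CPM. The decidual and trophoblast sum was lowest in PGR-A OE replicate 4 and highest in control replicate 4, and its part in these levels was not tested.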

How the results depend on the processing

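The labels number the replicates in every group, but same-numbered libraries did not deviate together (correlations of -0.26 to 0.19), so the numbers were not taken as pairs. With a replicate block, Kcnip2 was the 1 member that passed in PGR-B OE against control, while the adjusted p of Kcnc4 was 0.0762 there and 0.0677 in PGR-A OE against control, and 11 genes passed for PGR-B OE against PGR-A OE. In PGR-A OE against control, 3 members and 102 genes passed (75 higher, 27 lower). DESeq2 gave 7 members, 5 higher (Kcnip2, Kcnt1, Kcnc4, Kcng4 and Kcnab3) and 2 lower (Kcne2 among them), and 564 genes (296 higher, 268 lower), the 8 libraries alone 63 genes, and fits without 1 library 32 to 99 genes. In PGR-B OE against control, 2 members and 48 genes passed. It was 1 member with limma voom, with the 8 libraries alone and with both PGR-A OE replicate 4 and control replicate 4 left out, and 1 to 2 without 1 library. For genes it was 221 with DESeq2 (145 higher, 76 lower), 91 with both of these left out, and 22 to 48 without 1 library. Between PGR-B OE and PGR-A OE, 0 members and 18 genes passed, against 1 member and 126 genes with DESeq2, 10 genes with the 8 libraries alone, 38 with both left out, and 11 to 31 without 1 library. The log2 difference of Kcnc4 for PGR-B OE against PGR-A OE, 0.20, ran from -0.10 (without PGR-B OE replicate 3) to 0.38 (without PGR-B OE replicate 4), and that of the Kcnmb1 to Kcnma1 ratio in PGR-B OE against control, 0.013, ran from -0.069 (without PGR-B OE replicate 3) to 0.098 without 1 library. The cause of these shifts was not tested. No scaling moved the median of all genes by more than 0.036 on the log2 scale. Levels under about 0.309 CPM were too shallow to test, and Kcnt1, Kcnh1 and Kcnc1 rest on few counts per control library.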
